A study of Bos taurus with 32 samples.

Results

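The miR-15, miR-16, miR-195 and miR-497 family was followed in the fat of beef steers fed a control or a high fat diet. Its 6 members on the array, bta-miR-15a, bta-miR-15b, bta-miR-16a, bta-miR-16b, bta-miR-195 and bta-miR-497, were taken by name from the 672 bovine miRNAs that the array measures. The samples came from 16 Hereford and Aberdeen Angus cross steers, 8 on each diet, killed in the second year of life after some months of feeding. Flax seed replaced part of the barley grain to raise the fat of the high fat diet. From every carcass a piece of backfat, the subcutaneous depot, and a piece of perirenal fat, the visceral depot, were kept, so that 4 groups of 8 samples gave 32 single-dye (Cy3) arrays, 1 for each sample. Each sample is whole tissue, in which fewer cells of a type and less RNA per cell cannot be told apart.

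A miRNA is a short RNA that lowers the output of messenger RNAs whose untranslated ends pair with its seed, the run of bases near its 5′ end. The members of this family carry the same seed and so share most of their predicted targets, among them cyclins, cyclin-dependent kinases and the survival factor BCL2. In mammals they are known as brakes on the cell cycle and as promoters of apoptosis, and some of them have been studied in the differentiation of fat cells. They are made from pairs of genes that lie close together. In the RefSeq annotation of the cow (assembly ARS-UCD2.0), MIR15A lies within 1000 bases of MIR16A, MIR15B within 1000 bases of MIR16B inside the gene SMC4, and MIR195 within 1000 bases of MIR497.

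The arrays of the diets differed as a whole. Summed over its miRNAs, a control array gave an intensity of 26021 to 79290 and a high fat array 96888 to 366714, which is 5.42 times as much between the medians. The labelling spike-ins, RNAs added in equal amount to every sample, stood at 0.783 times their control intensity on the high fat arrays. The number of miRNAs called detected was 115 to 176 on a control array and 169 to 259 on a high fat array. Each group lay on a slide of its own and each diet was scanned in a session of its own, so diet, slide and session cannot be told apart. Levels are given as the log2 of the total intensity of a miRNA over the 75th percentile of its array, taken over the 91 miRNAs detected on all 32 arrays. On this scale an undetected value stands at the floor of -7.22. The 4 miRNAs listed as markers of adipose tissue (bta-miR-103, bta-miR-107, bta-miR-27b and bta-miR-378) were detected on all 32 arrays.

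On the high fat diet 5 of the 6 members rose in both depots and bta-miR-15b fell in both, although bta-miR-15b was higher without scaling or scaled to spike-ins or bta-miR-181a, all 6 had negative differences (4 of them called) when scaled over the whole array, and bta-miR-16a and bta-miR-16b were lower after normexp background correction. The 3 risen members detected on all arrays, bta-miR-15a, bta-miR-195 and bta-miR-497, rose by 3.59 to 5.94-fold in subcutaneous fat and by 3.88 to 5.65-fold in visceral fat, while the size of the rise of bta-miR-16a and bta-miR-16b depends on the value given to undetected control arrays. In the same samples bta-miR-15b fell 2.40-fold and 2.31-fold (limma, Benjamini-Hochberg adjusted p from 1.08e-08 to 3.51e-05 over the 12 values). These calls have to be read against their background, since 76.0% of the 233 miRNAs tested were called in subcutaneous fat (41.6% higher and 34.3% lower) and 71.7% in visceral fat (42.1% higher and 29.6% lower). The median difference of the members was 2.13 in subcutaneous fat and 2.31 in visceral fat, on the log2 scale, against 0.10 and 0.17 for all 233 miRNAs and -0.91 and -0.80 for the 91 detected on every array. The members had medians of 1.99 and 2.13 with each undetected array entered at its own limit of detection.

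**Figure D1:**
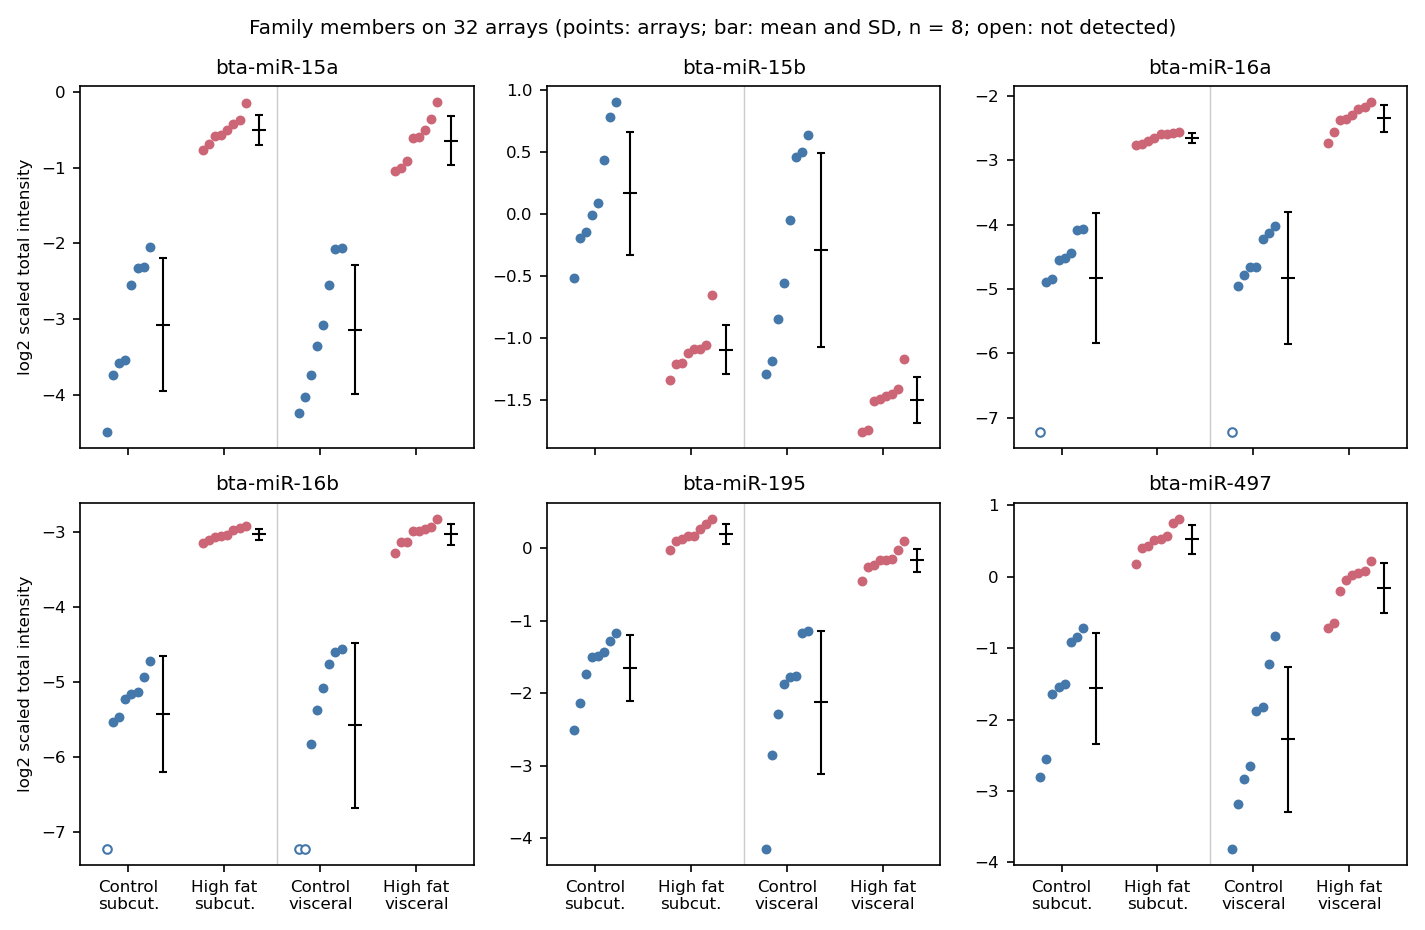
Log2 scaled total intensity of each member (vertical axis) on every array of the 4 groups, with the mean and SD of 8 arrays as the bar beside the points and undetected arrays as open points at the floor of -7.22. High fat arrays (red) lie above all control arrays (blue) of the same depot in 5 panels, while in the bta-miR-15b panel they lie below them in subcutaneous fat and overlap them in visceral fat.

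bta-miR-15a and bta-miR-16a come from neighbouring genes, a pair best known in people for its loss in chronic lymphocytic leukaemia. In subcutaneous fat the level of bta-miR-15a was -4.49 at the lowest, -3.05 in the median and -2.05 at the highest of the control steers, and -0.77, -0.53 and -0.15 in the high fat steers. The difference was 2.57 ± 0.31 (SE, n = 8 steers a diet; limma, adjusted p = 1.08e-08). In visceral fat bta-miR-15a ran from -4.25 over a median of -3.21 to -2.07 in control steers and from -1.04 over -0.60 to -0.14 in high fat steers. The diets did not overlap in either depot, and the control steers were spread more widely (SD 0.88 and 0.85) than the high fat steers (SD 0.20 and 0.32).

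bta-miR-16a was dimmer on the control arrays and was not detected in the subcutaneous fat of control steer 405 and in the visceral fat of control steer 111. In subcutaneous fat it ran from the floor over a median of -4.53 to -4.07 in control steers and from -2.77 over -2.62 to -2.56 in high fat steers. In visceral fat it ran from the floor over -4.66 to -4.01 and from -2.72 over -2.32 to -2.10. The diets were again apart in both depots. The fitted differences, with undetected arrays at the floor, were 2.18 ± 0.35 and 2.49 ± 0.35 (SE; limma, adjusted p = 2.33e-06 and 2.17e-07). With each undetected array entered at its own limit of detection they were 1.90 and 2.24, and averaged over spots in place of the total intensity they were 1.71 and 2.04.

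bta-miR-15b and bta-miR-16b, whose genes sit together in SMC4, parted on this scale. In subcutaneous fat bta-miR-15b ran from -0.52 over a median of 0.04 to 0.90 in control steers and from -1.34 over -1.11 to -0.66 in high fat steers, with no overlap and a difference of -1.26 ± 0.24 (SE; limma, adjusted p = 1.96e-05). In visceral fat it ran from -1.29 over -0.31 to 0.63 and from -1.76 over -1.48 to -1.17, so that the lowest control steers reached into the high fat range. The difference there was -1.21 ± 0.24 (SE; limma, adjusted p = 3.51e-05).

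On the same scale bta-miR-16b moved the other way from its neighbour, while both were higher without scaling and both lower after normexp correction. bta-miR-16b was not detected in the subcutaneous fat of control steer 405 and in the visceral fat of control steers 108 and 111. In subcutaneous fat it ran from the floor over a median of -5.19 to -4.72 in control steers and from -3.14 over -3.05 to -2.92 in high fat steers. In visceral fat it ran from the floor over -5.23 to -4.56 and from -3.28 over -2.98 to -2.83. Every high fat steer was above every control steer of the same depot. The fitted differences were 2.39 ± 0.33 and 2.55 ± 0.33 (SE; limma, adjusted p = 1.33e-07 and 3.79e-08), and 2.11 and 2.13 with the same limits entered.

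bta-miR-195 and bta-miR-497, the third neighbouring pair, which has been described as a brake on the cycling of muscle and heart cells, rose together. In subcutaneous fat bta-miR-195 ran from -2.50 over -1.49 to -1.16 in control steers and from -0.02 over 0.17 to 0.40 in high fat steers. In visceral fat it ran from -4.14 over -1.82 to -1.14 and from -0.45 over -0.16 to 0.10. The diets were apart in both depots, by 1.85 ± 0.27 in subcutaneous and 1.96 ± 0.27 in visceral fat (SE; limma, adjusted p = 4.22e-07 and 1.34e-07).

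The level of bta-miR-497 in subcutaneous fat was -2.80 at the lowest, -1.52 in the median and -0.71 at the highest in control steers, and 0.18, 0.52 and 0.81 in high fat steers. In visceral fat it ran from -3.81 over -2.26 to -0.83 and from -0.71 over -0.01 to 0.22. No control steer reached the lowest high fat steer, although in visceral fat the gap was small. The differences were 2.09 ± 0.33 and 2.12 ± 0.33 (SE; limma, adjusted p = 1.13e-06 and 8.21e-07). As a share of all tested miRNAs, groups of 8 that did not overlap were found among 33.0% on the high side and 19.7% on the low side in subcutaneous fat, and among 28.3% and 18.0% in visceral fat.

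The size and in part the direction of these differences rest on how the arrays are made comparable. As deposited, without any scaling, the median intensity of bta-miR-15b was 3.27 times as high in high fat steers in subcutaneous fat and 3.11 times in visceral fat, when the other 5 members were 22.04 to 36.1 times and 19.5 to 39.2 times as high. bta-miR-15b was higher in high fat steers without scaling (1.65 in subcutaneous and 1.22 in visceral fat, log2), scaled to the labelling spike-ins (1.90 and 1.67) and scaled to bta-miR-181a (0.75 and 0.67). Scaled to the 75th percentile over all 672 miRNAs, most of them undetected, all 6 members had negative differences. A control array had 115 to 176 miRNAs detected, so on most of them this percentile is the fixed low value of an undetected miRNA. On high fat arrays, with 169 or more detected, it is a measured intensity, so the divisor differs in kind between the diets. With the deposited log2 table, bta-miR-16a, bta-miR-195 and bta-miR-497 differed in subcutaneous fat by 0.73, 0.45 and 0.69 and were not called (limma, adjusted p = 0.141, 0.325 and 0.160). That table lowers every high fat array and leaves most control arrays unshifted. Under each of the 7 scalings plotted, bta-miR-15b had the lowest difference of the 6, below the median of the 91 common miRNAs, and the other 5 lay above that median. Apart from quantile normalization these scalings subtract 1 constant from each array, which leaves the distances between miRNAs detected on all arrays as they are, so this is no sign of stability. Normexp background correction of the spots, which is not among the 7, gave bta-miR-16a -0.50 and -0.32 and bta-miR-16b -0.70 and -0.71, where the 91 common miRNAs had a median of -1.26 in both depots. There bta-miR-15b (-1.17 in subcutaneous fat) lay above that median, by 0.09 in each depot. The split of all calls moved with the scaling too, from 97 higher and 80 lower in subcutaneous fat to 206 and 4 without scaling, 216 and 1 with the spike-ins, and 27 and 202 after normexp correction.

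**Figure D2:**
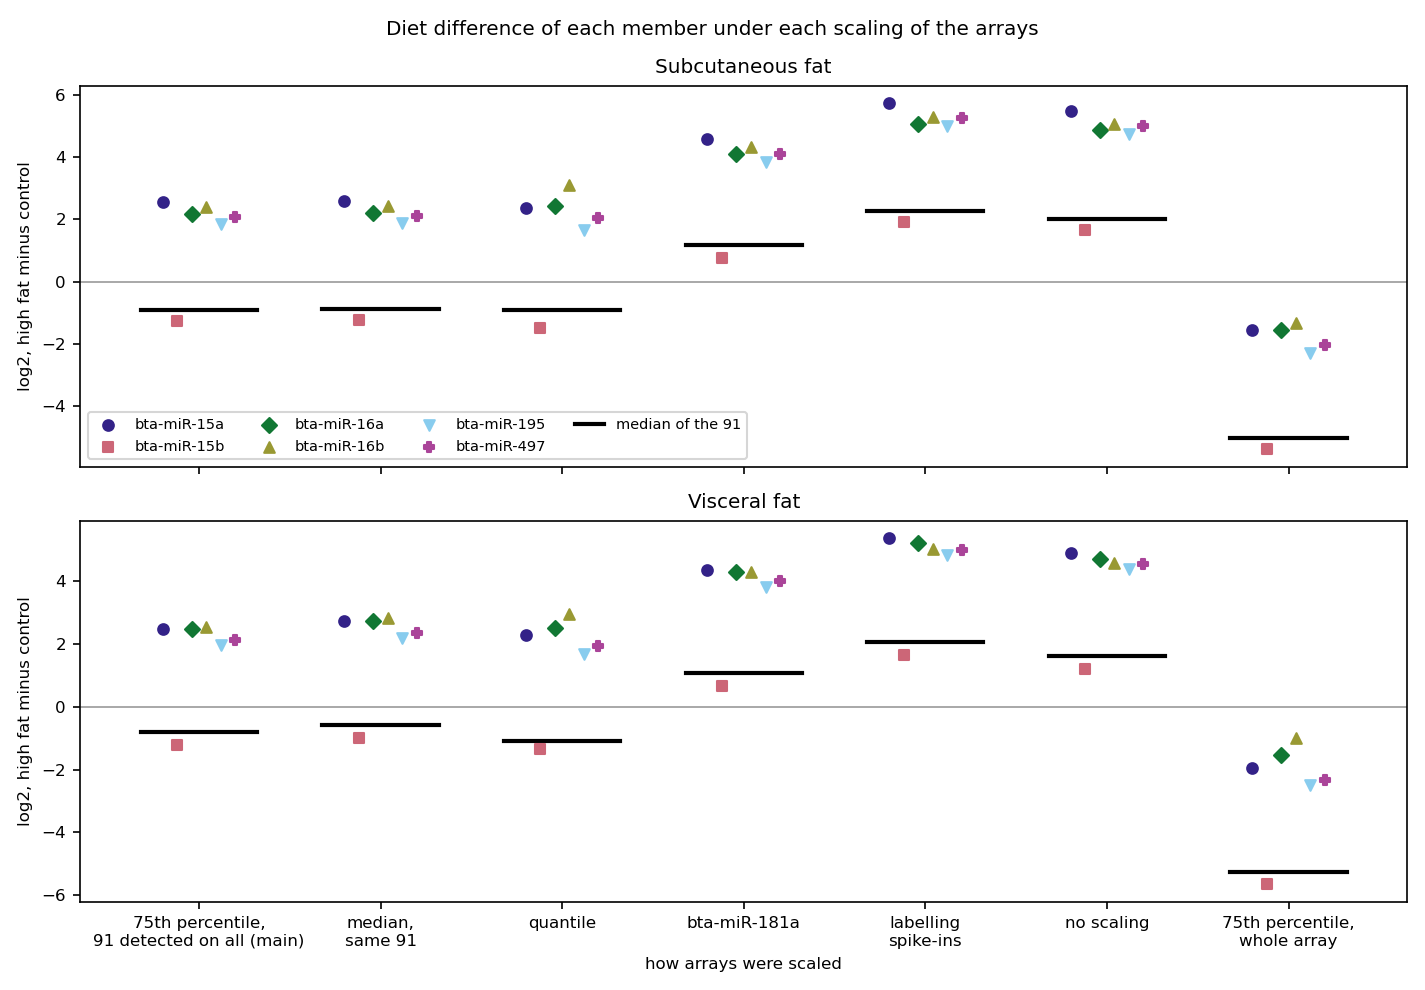
Difference between the diets (vertical axis, log2, high fat minus control) of each member under 7 scalings of the arrays (horizontal axis), with the median of the miRNAs detected on all arrays as a black bar. The zero line moves with the scaling, while bta-miR-15b lies just below the black bar and the other 5 members above it, distances that all but quantile normalization leave nearly unchanged by construction.

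A ratio of 2 miRNAs on the same array does not depend on the scaling, and it shows unequal change only. The 4 members detected on all 32 arrays gave 6 pairs, each compared in 4 contrasts by a two-sided exact permutation test of 8 arrays against 8, adjusted by Benjamini-Hochberg over the 24 tests. Ratios of other miRNAs were not compared, so how often any pair separates the diets is not known here. Of the 6 pairs, the 3 that hold bta-miR-15b shifted furthest with diet in both depots.

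In subcutaneous fat the log2 ratio of bta-miR-15a to bta-miR-15b ran from -4.57 over a median of -3.06 to -2.11 in control steers and from 0.10 over 0.58 to 0.98 in high fat steers. In visceral fat it ran from -3.69 over -2.87 to -1.78 and from 0.45 over 0.76 to 1.41. The ratio thus changed 14.2-fold in subcutaneous and 13.0-fold in visceral fat, with every high fat array above every control array (exact permutation, adjusted p = 0.000533 for each, from the smallest p that 12870 splits allow, 0.000155).

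The log2 ratio of bta-miR-15b to bta-miR-195 changed by -3.11 in subcutaneous fat and -3.16 in visceral fat, which is 8.61-fold and 8.95-fold. Its ratio to bta-miR-497 changed by -3.35 and -3.33, which is 10.2-fold and 10.1-fold. All 4 comparisons separated the diets without overlap (exact permutation, adjusted p = 0.000533 for each). The brightest control array of subcutaneous fat, from steer 209 with a summed intensity of 79290, had a bta-miR-15a to bta-miR-15b ratio of -2.95 on the log2 scale, and the dimmest high fat array of that depot, from steer 109 with 176846, had 0.32. In visceral fat the brightest control array (steer 211, 56259) had -2.70 and the dimmest high fat array (steer 412, 96888) had 1.38. The ranges of intensity do not meet, and the part of the intensity in these shifts was not tested. With normexp correction the 3 shifts were 4.52-fold, 5.08-fold and 5.83-fold in subcutaneous and 3.83-fold, 4.14-fold and 4.28-fold in visceral fat, each still without overlap (exact permutation, adjusted p = 0.000622 for each).

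**Figure D3:**
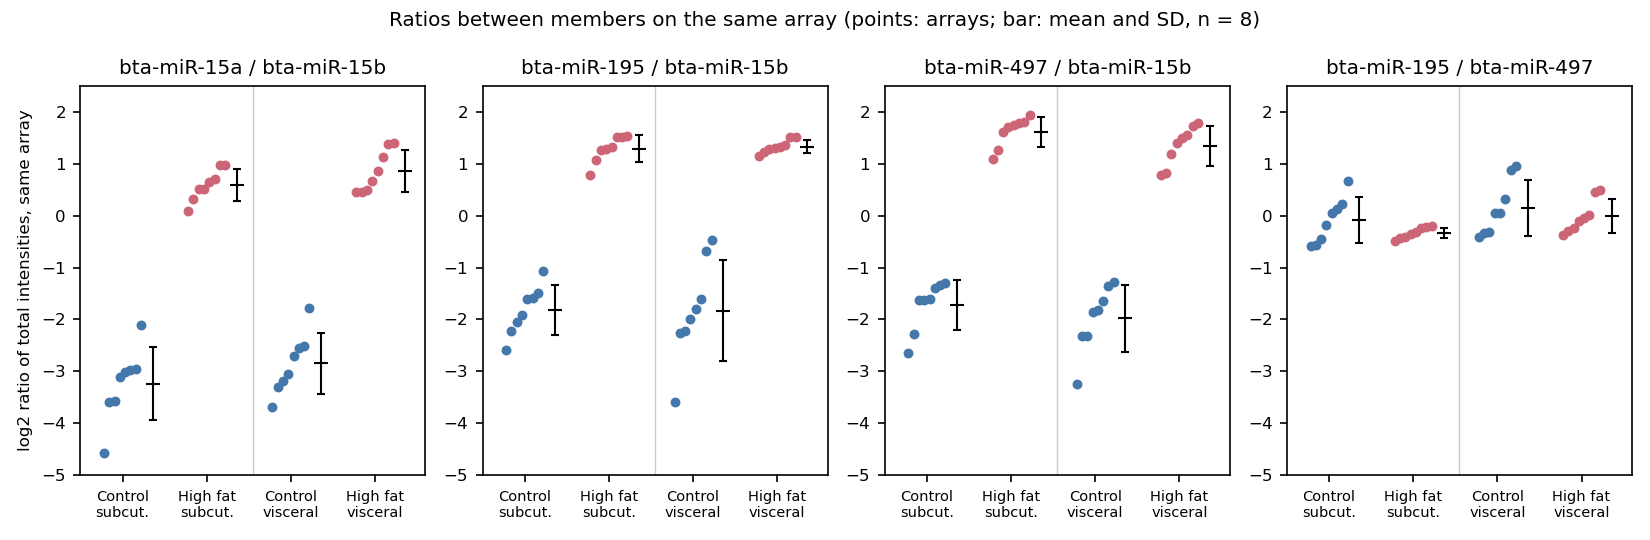
Log2 ratio of the total intensities of 2 members on the same array (vertical axis) in the 4 groups, with the mean and SD of 8 arrays beside the points. The 3 ratios over bta-miR-15b are below 0 on every control array and above 0 on every high fat array, while the bta-miR-195 to bta-miR-497 ratio overlaps between all groups.

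The pair of bta-miR-15b and its gene neighbour bta-miR-16b could be followed only on arrays where both were detected, and so without a test. On 7 control arrays of subcutaneous fat the log2 ratio of bta-miR-16b to bta-miR-15b ran from -6.00 to -4.20 with a median of -5.39, and on the 8 high fat arrays from -2.29 to -1.70 with a median of -1.90. On 6 control arrays of visceral fat it ran from -5.77 to -3.27 with a median of -5.22, and on the 8 high fat arrays from -1.72 to -1.37 with a median of -1.51. The neighbours bta-miR-15a and bta-miR-16a kept closer, with a median bta-miR-16a to bta-miR-15a ratio of -2.02 on 7 control arrays and -2.17 on the high fat arrays of subcutaneous fat, and of -1.43 on 7 and -1.73 in visceral fat. The means of that ratio were -1.61 and -2.15 in subcutaneous and -1.51 and -1.70 in visceral fat. The ranges of that ratio overlapped between the diets in both depots.

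Among the members that rose, the ratios moved little. bta-miR-15a gained on bta-miR-195 in subcutaneous fat by 0.73 on the log2 scale (exact permutation, adjusted p = 0.000533), with no overlap between the diets. In visceral fat the gain was 0.54 and did not pass (exact permutation, adjusted p = 0.0582). bta-miR-15a against bta-miR-497 differed by 0.48 and 0.37 (exact permutation, adjusted p = 0.0582 for each). Without the subcutaneous array of control steer 108 the first was 0.58 and passed (exact permutation, adjusted p = 0.0179), and with normexp correction it was -0.37 and passed in the other direction (exact permutation, adjusted p = 0.0252). At the same time the neighbours bta-miR-195 and bta-miR-497 differed by -0.24 and -0.17 (exact permutation, adjusted p = 0.221 and 0.504). With normexp correction the subcutaneous difference of bta-miR-15a against bta-miR-195 was -0.17.

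Together the 6 members took 0.578% to 1.97% of the summed intensity of a control array of subcutaneous fat (median 1.19%) and 2.59% to 3.63% of a high fat array (median 3.06%). In visceral fat the share was 0.401% to 1.45% (median 0.725%) in control steers and 1.27% to 2.49% (median 2.14%) in high fat steers. The shares of the diets did not overlap in subcutaneous fat and overlapped in visceral fat. A share of intensity depends on how brightly each probe binds and is not a share of molecules.

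Other miRNAs moved with the same contrast. The scaled intensity of bta-miR-126, a miRNA of endothelial cells, had a median of 0.918 in control and 4.27 in high fat steers in subcutaneous fat, and of 1.57 and 6.04 in visceral fat. The summed level of the adipose list had medians of 2.001 (1.40 to 2.81) and 2.94 (2.41 to 3.24) in subcutaneous fat and of 2.83 (1.98 to 3.69) and 4.09 (3.01 to 4.86) in visceral fat, with 3 of its 4 miRNAs called higher in both depots and bta-miR-378 called lower in subcutaneous fat. The 3 red blood cell miRNAs summed to 0.142 in control and 0.0881 in high fat steers in subcutaneous fat and to 0.219 and 0.0952 in visceral fat, with 1 called higher and 1 lower in each depot and bta-miR-144 undetected in 3 of the 4 groups. The 4 white blood cell miRNAs summed to 0.268 and 0.289 and to 0.236 and 0.243, with 1 called higher in each depot, 1 lower in subcutaneous and 2 lower in visceral fat. Of these, bta-miR-142 and bta-miR-150 were undetected in both control groups, and bta-miR-150 also in the visceral fat of high fat steers. The smooth muscle and stroma pair summed to 1.19 on both diets in subcutaneous fat and to 1.69 and 1.59 in visceral fat, although 1 of the pair, bta-miR-143, was called higher in each depot. The 5 skeletal muscle miRNAs summed to at most 0.228 on any array, with 1 called higher in each depot. Their part in the diet differences of the family was not tested.

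The depots were compared within each diet and over both. On neither diet did any of the 6 members pass the test between visceral and subcutaneous fat (limma, adjusted p from 0.149 to 1.0 in control and from 0.128 to 1.0 in high fat steers), while 18.9% (6.87% higher and 12.0% lower) and 26.2% (11.6% and 14.6%) of the 233 miRNAs did. The limma fit shares its error over both diets, and every member was spread more widely in control than in high fat steers. For bta-miR-497 the SE was 0.326 on either diet. Its SD in subcutaneous and visceral fat was 0.775 and 1.012 in control and 0.199 and 0.348 in high fat steers. The limma result in high fat steers thus carries the control spread and does not show that the depots were equal there. The depots of a diet lay on different slides and cannot be told apart from them. Every member overlapped between the depots. Groups of 8 without overlap made up 0.0% of the miRNAs in control steers, and 6.01% (higher in visceral fat) and 3.43% (lower) in high fat steers. At an unadjusted p under 0.05 limma called 1 member on each diet, bta-miR-497, and the methods' t-test after Benjamini-Hochberg called 0 members in control and 4 on the other diet, namely bta-miR-15b, bta-miR-195 and bta-miR-497 lower and bta-miR-16a higher in visceral fat. Over both diets bta-miR-497 was 1.62-fold lower in visceral fat (-0.70 ± 0.23, SE; limma, adjusted p = 0.0170) and bta-miR-15b was 1.35-fold lower (-0.43 ± 0.17, SE; adjusted p = 0.0436), where 34.8% of the miRNAs were called (15.9% higher and 18.9% lower).

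The steers show how even these differences were. On the high fat diet bta-miR-497 was lower in the visceral fat of 8 of 8 steers, with differences from -1.18 to -0.23 and a median of -0.64. bta-miR-195 was also lower in 8 of 8, from -0.78 to -0.02, and bta-miR-15b in 7 of 8, whereas bta-miR-16a was higher in 7 of 8. On the control diet bta-miR-497 was lower in 6 of 8 steers, bta-miR-195 in 6 of 8 and bta-miR-15b in 5 of 8, with single steers from -2.12 to 1.73 for bta-miR-497. The visceral difference of bta-miR-195 over both diets was -0.42 and did not pass (limma, adjusted p = 0.0948). bta-miR-15a, bta-miR-16a and bta-miR-16b differed between depots by -0.10 (95% interval -0.55 to 0.34), 0.15 (-0.36 to 0.66) and -0.08 (-0.55 to 0.40), intervals that leave room for changes of either sign.

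**Figure D4:**
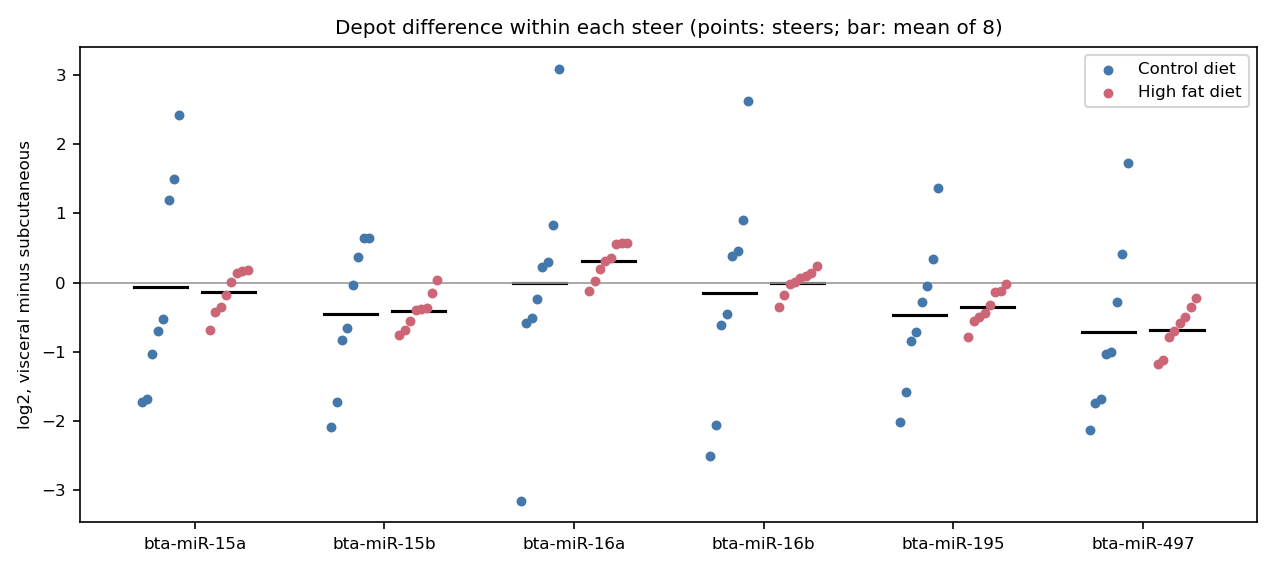
Difference between visceral and subcutaneous fat of the same steer (vertical axis, log2) for each member, with 8 control (blue) and 8 high fat steers (red) and their mean as a bar. High fat steers lie close together, all 8 below 0 for bta-miR-195 and bta-miR-497, while control steers reach to both sides of 0 for all 6 members.

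With the steer as a replicate block, bta-miR-497 was still lower in visceral fat over both diets (limma, adjusted p = 0.0260) and bta-miR-15b no longer passed (limma, adjusted p = 0.0858). bta-miR-15b was also not called without the visceral array of control steer 111 (adjusted p = 0.0644) or without the subcutaneous array of high fat steer 202 (adjusted p = 0.0713), and bta-miR-195 was called without the subcutaneous array of control steer 405 (-0.48, limma, adjusted p = 0.0469). The median scaled level of bta-miR-126 was above that of subcutaneous fat in the visceral fat of either diet, and its part in the depot differences was not tested.

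Relative to bta-miR-497, bta-miR-15a was higher in visceral fat by 0.65 in control and 0.54 in high fat steers (log2; exact permutation, adjusted p = 0.0380 and 0.00187), and bta-miR-195 was higher by 0.32 in high fat steers (adjusted p = 0.0286 by the same exact test). These are the 3 pair comparisons between depots that passed among 12. With signs flipped within steers instead, none of the 3 passed (exact sign-flip test, adjusted p = 0.0938 for each, where the smallest p that 8 steers allow is 0.00781). Adjusted over the 12 comparisons, 1 pair alone at that smallest p cannot pass. The ratio of bta-miR-15a to bta-miR-497 in high fat steers stood at that smallest p, so its failure to pass decides nothing. The ratios of bta-miR-15b to bta-miR-195 differed between depots by 0.01 in control and -0.04 in high fat steers (exact permutation, adjusted p = 0.979 and 0.713).

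The difference between depots was not found to depend on diet for any member. The interaction ran from -0.07 for bta-miR-15a to 0.31 for bta-miR-16a on the log2 scale (limma, adjusted p from 0.891 to 0.993, 0 of 6 also at an unadjusted p under 0.05), and 1.72% of the 233 miRNAs passed it (0.429% higher and 1.29% lower). The intervals were wide, from -0.97 to 0.83 for bta-miR-15a and from -0.71 to 1.34 for bta-miR-16a. For 5 of the members the levels in the 4 groups thus fell in the same order of diets in each depot, with both high fat groups above both control groups in mean level. bta-miR-15b had the reverse order.

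The array holds 3 further miRNAs of the wider group around the family, bta-miR-103, bta-miR-107 and bta-miR-424, which have part or all of the seed, and the first pair also stands in the adipose list. Of these, bta-miR-103 and bta-miR-107, encoded within genes of coenzyme A metabolism and known from adipocytes and insulin sensitivity, rose 1.64-fold and 2.38-fold in subcutaneous fat and 1.71-fold and 2.42-fold in visceral fat (limma, adjusted p from 6.56e-09 to 3.64e-05). Both were higher in visceral fat over both diets, by 0.27 and 0.38 on the log2 scale (limma, adjusted p = 0.0352 and 0.00663), the opposite side from bta-miR-15b and bta-miR-497. bta-miR-424 was detected on 0 of 16 control and 16 of 16 high fat arrays, where the control arrays were dimmer as a whole. How many other miRNAs had this pattern was not counted. With each control array entered at its own limit of detection, it was at least 6.38-fold higher in high fat steers in subcutaneous fat and at least 2.24-fold in visceral fat. These values hold for the main scale only, since bta-miR-424 was not followed under the other scalings. On the high fat diet its level ran from -5.14 over a median of -3.71 to -3.15 in subcutaneous fat and from -6.11 over -4.68 to -4.05 in visceral fat, and the depots overlapped. No p is given, since its control arrays, all at the floor, have no spread.

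Most of the members were read by a pair of probes. bta-miR-15a, bta-miR-15b, bta-miR-16a, bta-miR-195 and bta-miR-497 were each read by 2 probes on 10 spots apiece, and bta-miR-16b by 3. In subcutaneous fat the probes of bta-miR-15b differed between diets by -1.27 and -1.25 on the log2 scale, those of bta-miR-497 by 2.08 and 2.09, those of bta-miR-195 by 1.87 and 1.84, and those of bta-miR-15a by 2.74 and 2.47. The probes of bta-miR-15a stood further apart in visceral fat, at 2.75 and 2.32. The first of these 2 probes was dim in control steers, with median intensities of 5.16 in subcutaneous and 2.64 in visceral fat. It had any spot well above background on 24 of 32 arrays and carried 13.6% to 17.3% of the summed intensity of bta-miR-15a by group. 1 probe of bta-miR-16a (79.7% to 85.3% of its summed intensity by group) and 1 of bta-miR-16b (86.7% to 95.1%) carried most of the reading of these dim miRNAs. For each, the probe that dominated was the only one with a difference to give, 1.63 in subcutaneous and 1.92 in visceral fat for bta-miR-16a, below the difference of its total intensity, and 2.09 and 2.15 for bta-miR-16b. The mature forms of bta-miR-16a and bta-miR-16b are nearly identical, and whether each probe also reads the other miRNA was not tested. Their log2 ratio had group medians of 0.65, 0.38, 0.54 and 0.67 in control subcutaneous, high fat subcutaneous, control visceral and high fat visceral fat, on 7, 8, 6 and 8 arrays.

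Within the groups the members varied together to unequal degrees. Over 32 arrays, with each value taken as its deviation from the mean of its group, bta-miR-497 correlated with bta-miR-15a (r = 0.856), bta-miR-195 (r = 0.814) and bta-miR-15b (r = 0.714). bta-miR-16a and bta-miR-16b correlated with each other (r = 0.911 over 29 arrays where both were detected) and hardly with bta-miR-15b (r = 0.116 over 30 and 0.131 over 29 arrays). Of 87 other miRNAs detected on all arrays, the 3 most alike to the mean of bta-miR-15a, bta-miR-15b, bta-miR-195 and bta-miR-497 were bta-miR-29a (r = 0.944), bta-miR-27b (r = 0.937) and bta-miR-30b-5p (r = 0.881), against a median of -0.08 over the 87. The arrays share slides and the scaling of each array enters all values, so these correlations are descriptions. They pool the 4 groups, and the control arrays, which spread more widely, weigh most in them. For bta-miR-15a the SD in subcutaneous and visceral fat was 0.88 and 0.85 in control and 0.20 and 0.32 in high fat steers. Correlations within single groups were not taken.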

How the data were processed

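Total RNA of 32 fat samples was labelled with Cy3 and hybridised to arrays printed with 672 bovine miRNAs, each on 20 spots. As deposited, the scanner files hold the total intensity of each miRNA, summed over its probes by the authors' scanner software (Feature Extraction 10.7.3.1, per the file headers), after background subtraction and before any scaling between arrays, with undetected miRNAs entered at a fixed low value. The authors also deposited a table of log2 values, described as scaled in GeneSpring to the 75th percentile, in which values under 0 stand as 0. Its 244 features above 0 were matched by value to 1 miRNA each (largest difference 2.1e-06). Against the total intensities it stands lower on 18 of 32 arrays. These are every high fat array (by 2.67 to 5.05, log2) and the control arrays of steer 209 (subcutaneous, 2.46) and steer 410 (visceral, 1.88). The other control arrays are not shifted, so the diets are not scaled alike in it. The table was used as an alternative, and what shifted its arrays is not given in the sources used here.

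Each total intensity was set against the 75th percentile of its array, taken across the 91 miRNAs that no array missed, floored at 0.00671 and taken to log2. Of 240 miRNAs detected on at least 8 arrays, 7 lay at the floor throughout and 233 were tested in limma 3.58.1 (R 4.3.3) over the 4 groups of diet and depot, with a Benjamini-Hochberg adjusted p under 0.05 as the call. Groups, and the steer that links the depots, came from the sample labels, and separate steers are the replicates. Ratios of members on 1 array were tested by exact permutation in Python 3.11.15 (numpy 2.4.6, pandas 2.3.3). The code was tested on simulated data. The number of arrays, 8 a group, and not a read depth limits the precision. Both depots of a steer come from 1 animal, so the steer pairs them; the correlation of paired deviations was above 0.1 in 5 of 16 steers (-0.391 to 0.652).

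All 6 members are named in every comparison, with bta-miR-103, bta-miR-107 and bta-miR-424 as related miRNAs and the 3 miRNAs most alike to the family. miRNAs picked by an identical seed sequence were not analysed here. The members, the marker lists and the tests were chosen with earlier results of these data known. Alternatives were 6 other scalings, spot intensities, normexp correction (offset 50), the deposited table, other filters and floors, steer, slide and slide position as blocks, the methods' t-test and single arrays left out. Of the arrays left out, those of steers 405, 111 and 202 were chosen after seeing the data.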

Additional observations from a re-analysis of the deposited data

Results flagged for a closer look

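Of 48 sets of 8 values (6 members and 6 pair ratios, each in 4 groups), 4 had a sample that stood far from the others by Dixon's gap test, which by chance marks about 1 in 20. The highest bta-miR-15b level of high fat subcutaneous fat was -0.66 in steer 202. The lowest bta-miR-16a levels were -7.22, the floor of an undetected miRNA, in the subcutaneous fat of control steer 405 and in the visceral fat of control steer 111. The lowest bta-miR-16b level of control subcutaneous fat was also -7.22, in steer 405. Without any 1 of these arrays all 6 members were still called between the diets in both depots (limma, adjusted p under the threshold).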

How the results depend on the processing

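All 6 members were called between the diets in both depots, in one direction or the other, except that 3 were called in subcutaneous fat with the deposited values, 4 in each depot with the all-array percentile, 4 of the 4 that remain among miRNAs detected on all arrays, and 5 in visceral fat by the methods' t-test with Bonferroni correction, where bta-miR-15b had an adjusted p of 0.183 (an alternative run beside limma). Directions turned with the scale. Over the 75th percentile of all miRNAs on the array, the diet difference (log2, subcutaneous then visceral) was -1.57 and -1.95 for bta-miR-15a, -1.56 and -1.52 for bta-miR-16a, -1.34 and -1.001 for bta-miR-16b, -2.30 and -2.49 for bta-miR-195, and -2.05 and -2.32 for bta-miR-497, while the median of the 91 common miRNAs was -5.05 and -5.24. For bta-miR-15b it was 1.65 and 1.22 without scaling, 1.90 and 1.67 with spike-ins and 0.75 and 0.67 with bta-miR-181a, against medians of 2.01 and 1.63, 2.26 and 2.08, and 1.16 and 1.09. After normexp correction it was -0.50 and -0.32 for bta-miR-16a and -0.70 and -0.71 for bta-miR-16b. Normexp also gave subcutaneous ratio differences of -0.17 for bta-miR-15a to bta-miR-195 and -0.37 for bta-miR-15a to bta-miR-497, of which the latter passed. For bta-miR-16b the depot difference was -0.87 without scaling in high fat steers and 0.26 after normexp over both diets. The cause was not tested.

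The depot calls were less firm, and in the main setting the error of the high fat comparison includes the wider spread of the control arrays. In high fat steers, 0 members were called in the main setting, against 4 without scaling, 1 with bta-miR-181a, 3 after normexp and 4 by the methods' t-test after Benjamini-Hochberg. Over both diets 2 were called, against 0 with the all-array percentile or the deposited values, 4 without scaling, 5 after normexp, and 1 each with the median, quantile normalization, a floor at an intensity of 1 and slide position as a block. With single arrays left out the count was 1 to 3. With the steer as a replicate block 1 was called over both diets, and 0 pair ratios passed between depots in either diet, against 1 in control and 2 in high fat steers without it. After normexp 0 passed in control steers. The diet contrasts cannot be fitted with the steer as a fixed block, since each steer had 1 diet, and bta-miR-16a and bta-miR-16b have no value among miRNAs detected on all arrays. Of the values of single members, 566 kept direction and side of the threshold, 18 gained and 15 lost the call, 57 changed sign or size without a call and 22 reversed.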
